A study of Mus musculus with 27 samples.

Results

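Genes that mark macrophages laden with lipid were followed in liver, omental adipose tissue and skeletal muscle of *Mlx*KO mice. The 10 genes were *Adgre1*, *Cd68*, *Itgax*, *Trem2*, *Gpnmb*, *Cd9*, *Spp1*, *Lgals3*, *Mmp12* and *Atp6v0d2*. They were picked by symbol, 10 of the 36333 genes with a value, and with their differences between 20 and 5 months in these same samples already known. Those age differences are therefore given as a description and without a p-value. Only differences between tissues over both ages were tested for these genes, and these tests use the same samples.

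All 27 samples came from male *Mlx*KO mice, made by crossing B6.129 animals that carry Gt(ROSA)26Sortm1(cre/ERT2)Tyj/J with Mlx Flox/Flox animals. They carry floxed *Mlx*, the shared partner of the glucose-sensing factors ChREBP and MondoA, and a CreER recombinase that the ROSA26 promoter drives in all cell types. Every mouse had 5 daily i.p. doses of tamoxifen in corn oil (75 mg/kg each) at weaning, once it weighed enough, so the deletion was not restricted to a cell type. It was not equally complete, however. By the study's own transcript measurements, skeletal muscle of young and old *Mlx*KO mice kept more *Mlx* expression than liver or adipose tissue. In comparisons with muscle, tissue and extent of deletion therefore cannot be told apart. There were 4 samples of every tissue at 5 months and 5 at 20 months. Samples are named by the codes in their labels, which begin with X5 at 5 months and X18 at 20 months, followed by L for liver, F for adipose tissue or S for muscle and by the mouse number. The same 4 mouse numbers recurred in all 3 tissues at 5 months, whereas no number was shared between tissues at 20 months. Since every sample was *Mlx*KO and WT samples were not analysed here, no value below compares *Mlx*KO with WT. The labels name another extraction kit for liver than for adipose tissue and muscle, whereas the methods of the study name a single kit, and where kits differed, tissue and kit cannot be told apart. The age of the old mice is the one in the labels, and it is uncertain, since the codes begin with X18 and other material of the study gives a slightly lower age.

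Macrophages that meet large amounts of lipid, for example around dying adipocytes in fat or in a steatotic liver, take on a state with its own genes. The receptor Trem2 senses lipids and lipoproteins and signals through the adaptor Tyrobp and the kinase Syk. Cells in this state make lysosomal and lipid-handling proteins and secrete osteopontin (*Spp1*), galectin-3 (*Lgals3*) and macrophage elastase (*Mmp12*). Some of the same genes are also used by osteoclasts, and *Cd9*, *Spp1* and *Lgals3* are made by many cells that are not macrophages.

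To show the sequence around the starts of these genes, 250 bases before to 50 bases after each RefSeq transcript start were searched on both strands (build GRCm38.p6). Windows were found for 8 of the 10 genes, 10 windows in all. The AP-1 motif TGANTCA, where N is any base, was in 5 of the 10 windows and in 7.81% of 32851 mouse windows of the same length. The PU.1 motif GAGGAAGT was in 2 of the 10, and in 3.20% of all. The E-box CACGTG, which Mlx and its partners and the lysosomal TFEB family can bind, was in 0 of the 10 and in 7.15% of all. The related M-box TCATGTG was in 1 of the 10, and in 3.77% of all. A match is only a match of letters, and no binding was measured. AP-1 and PU.1 matches are shown in capitals in short stretches of 6 of the genes, read on the strand of the gene. In *Gpnmb* (chr6:49036491-49036547, forward strand) the AP-1 match began 9 bases into the RefSeq transcript, which lies ahead of the gene start in the GENCODE annotation. In *Trem2* (chr17:48346357-48346423, forward strand) it began at -9 from the start, in *Itgax* (chr7:128129459-128129525, forward strand) at -56, and in *Cd68* (chr11:69666163-69666229, reverse strand) at -24, with another at -149. *Mmp12* had the match at -44 of one transcript start (chr9:7347295-7347361, forward strand) and a PU.1 match, on the other strand, at -88 of a different start (chr9:7344274-7344341, forward strand). The PU.1 match of *Spp1* (chr5:104434963-104435030, forward strand) began at -113.
Gpnmb: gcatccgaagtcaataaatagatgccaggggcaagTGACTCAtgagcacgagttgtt
Trem2: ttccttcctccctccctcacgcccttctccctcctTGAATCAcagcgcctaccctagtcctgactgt
Itgax: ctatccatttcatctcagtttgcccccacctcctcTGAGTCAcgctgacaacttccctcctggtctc
Cd68: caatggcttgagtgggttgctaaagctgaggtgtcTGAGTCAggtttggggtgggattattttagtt
Mmp12: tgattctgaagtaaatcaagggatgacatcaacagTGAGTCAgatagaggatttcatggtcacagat
Mmp12: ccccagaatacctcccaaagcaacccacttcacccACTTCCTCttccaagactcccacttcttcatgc
Spp1: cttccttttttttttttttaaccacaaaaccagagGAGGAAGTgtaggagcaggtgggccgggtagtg

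RNA was sequenced from poly-A-selected libraries, and the authors deposited a scaled signal for each gene and sample. Between 14384695 and 25673919 reads lay on genes, and muscle had the lowest group medians. Values are given as deposited, and 3 reads gave a value between 0.0703 and 0.242, depending on the sample. The targeted gene *Mlx* had values between 18.8 and 32.4 in liver, between 8.19 and 13.9 in adipose tissue and between 7.04 and 11.6 in muscle. Those values also count reads from exons outside the deleted segment, so they do not check the deletion. Tissue markers matched the labels. Summed values of 5 hepatocyte genes were at least 46507 in every liver and at most 343 elsewhere, those of 5 myofibre genes at least 119248 in every muscle and at most 820 elsewhere, and those of 5 adipocyte genes at least 3203 in every adipose sample and at most 219 elsewhere.

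When both ages were combined, *Adgre1*, *Cd68*, *Gpnmb*, *Cd9*, *Spp1* and *Lgals3* were all higher in adipose tissue than in muscle. In liver, 3 of these 6 were called higher than in muscle, near the 41.1% of all genes, and *Cd9* was called lower. The other 4, *Itgax*, *Trem2*, *Mmp12* and *Atp6v0d2*, were below the filter in muscle and entered the fit only through liver and adipose tissue, so they had to differ and are given without a test. The tested value is the log2 difference of log2(value + 1), each age weighted by its samples. Between adipose tissue and muscle, *Gpnmb* differed by 5.50 (standard error 0.449, limma adjusted p = 1.82e-11). The differences of the 4 genes below the filter in muscle were 7.15 (0.484) for *Mmp12*, 5.46 (0.348) for *Atp6v0d2*, 4.92 (0.344) for *Itgax* and 4.87 (0.353) for *Trem2*. *Cd9*, a tetraspanin found on many cell types, differed least of the 6, by 1.24 (0.229, limma adjusted p = 2.12e-05). Among all genes tested, 47.2% were called higher and 35.01% lower in adipose tissue than in muscle. The p-values rest on a spread within groups that is pooled over all 27 samples of the 3 tissues. The 4 mouse numbers at 5 months recur in every tissue, and this fit treats their samples as independent. In bulk tissue, fewer macrophages and less RNA per macrophage cannot be told apart.

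In liver against muscle, the largest differences were of *Spp1*, at 2.64 (standard error 0.383, limma adjusted p = 5.78e-07), and of *Adgre1*, which encodes the macrophage receptor F4/80, at 2.33 (0.264, limma adjusted p = 8.30e-09). The differences of the genes below the filter in muscle were 2.09 for *Mmp12*, 1.42 for *Trem2*, 1.36 for *Atp6v0d2* and 1.35 for *Itgax*, and those of the last 3 rested on the 20-month samples. *Cd68* was higher by 0.78 (0.295, limma adjusted p = 0.0177), but its direction turned with age, from -0.78 (0.443) at 5 months to 2.03 (0.396) at 20 months. *Cd9* was lower in liver by 0.69 (log2 -0.69, standard error 0.229, limma adjusted p = 0.00755). For *Gpnmb* the difference was -0.64 (95% interval -1.52 to 0.24, limma adjusted p = 0.188) and for *Lgals3* it was 0.35 (-0.29 to 0.99, limma adjusted p = 0.322), with -0.53 at 5 months and 1.06 at 20 months. Of all genes, 41.1% were called higher and 40.8% lower in liver than in muscle. The *Cd68* call was lost with the 20 most abundant genes left out of the scaling (0.57, limma adjusted p = 0.0714). It was lost as well without X18L18, X18L74, X18S57, X18S58, X18S59 or X18S60 (limma adjusted p 0.0520 to 0.0600). Without liver X18L74, *Gpnmb* was called lower in liver (-1.02, limma adjusted p = 0.0372).

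Liver and adipose tissue differed in the opposite direction for *Spp1* from the rest. *Spp1* was 1.13 higher in liver (standard error 0.383, limma adjusted p = 0.00891), and the other 9 genes were lower there, from -1.62 for *Adgre1* to -6.14 for *Gpnmb* (limma adjusted p at most 3.69e-06). Within the ages, which were not tested, the *Spp1* difference was 2.17 (standard error 0.574) at 5 months and only 0.29 (0.514) at 20 months. Of all genes, 39.2% were called higher and 43.7% lower in liver than in adipose tissue. The *Spp1* call was lost without the 20 most abundant genes in the scaling (0.25, limma adjusted p = 0.543), with edgeR on recovered reads (0.83, adjusted p = 0.0543) and without X5F5001 (0.82, limma adjusted p = 0.0561).

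**Figure D1:**
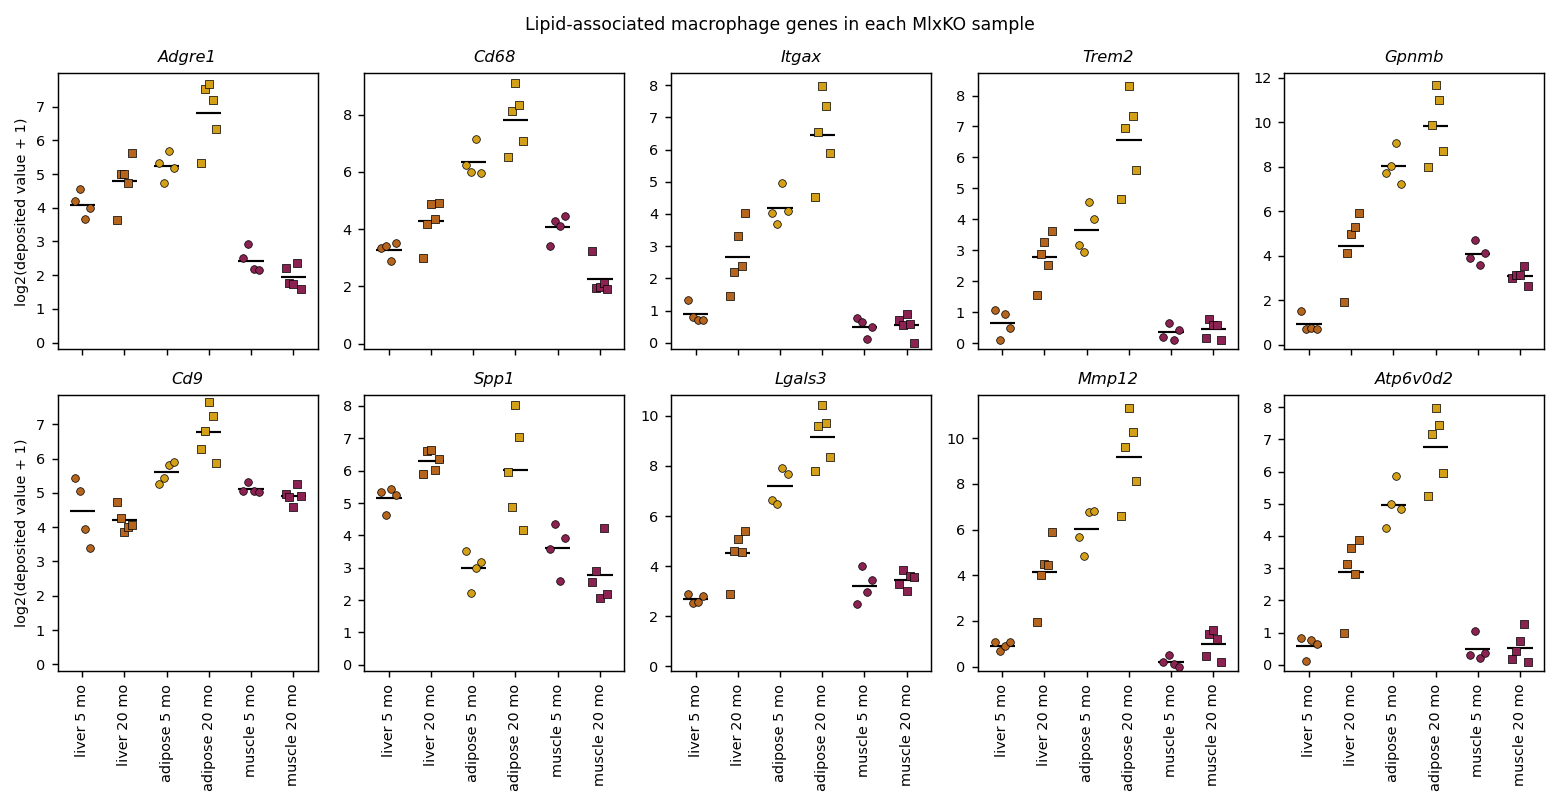
Log2 of the deposited value plus 1 for each of the 10 genes in each of the 27 *Mlx*KO samples. Circles are mice at 5 months (4 per tissue), squares mice at 20 months (5 per tissue), and the horizontal line is the group mean. At 20 months adipose tissue has the highest group mean for 9 of the 10 genes, and the *Spp1* mean is highest in liver on this scale.

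*Gpnmb* was lower in liver than in muscle at 5 months and had the higher mean in liver at 20 months. It encodes a transmembrane glycoprotein of lysosomes and the cell surface (gene ID 93695, chromosome 6, 49036546 to 49070929, GRCm38, forward strand). In liver the 5-month values were 1.91, 0.655, 0.713 and 0.640 and the 20-month values 2.75, 16.4, 30.2, 37.8 and 59.9. Every liver at 20 months lay above every liver at 5 months, though liver X18L16 (2.75) was close to the highest young liver, X5L4299 (1.91). In muscle the values were 13.8, 25.2, 10.9 and 16.5 at 5 months and 7.11, 7.78, 7.67, 10.6 and 5.27 at 20 months, all lower. At 5 months every muscle therefore exceeded every liver in *Gpnmb*, and the liver mean was 0.0591 times the muscle mean. At 20 months the liver mean was 3.83 times the muscle mean, with overlap through liver X18L16. The within-age log2 difference of liver from muscle was -3.13 (standard error 0.673) at 5 months and 1.35 (0.602) at 20 months. Adipose tissue was far above both, with 209, 262, 542 and 148 at 5 months and 249, 945, 3207, 2033 and 409.8 at 20 months. The ages overlapped there, and adipose X18F36 (249) and X18F40 (409.8) fell inside the range of young mice.

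*Trem2* itself was sparse outside adipose tissue. In liver it was 1.08, 0.0727, 0.927 and 0.400 at 5 months, from 1 to 17 reads, and 1.93, 6.41, 8.59, 4.71 and 11.3 at 20 months, from 38 to 226 reads. In adipose tissue it was 7.94, 6.61, 22.7 and 15.3 at 5 months and 23.99, 122, 316, 159.9 and 47.6 at 20 months. The ages did not overlap in either tissue, and the 20-month mean was 10.6 times the 5-month mean in liver and 10.2 times in adipose tissue. In muscle no sample held over 11 reads at either age, and *Trem2* stayed below the filter for the age comparison there. *Cd9*, which is often used with *Trem2* to mark these cells, behaved otherwise in liver, with values from 9.52 to 42.1 at 5 months and from 13.6 to 25.8 at 20 months. In adipose tissue *Cd9* was 37.5 to 58.8 at 5 months and 57.2 to 198 at 20 months, and in muscle 31.8 to 38.8 and 23.1 to 36.9. Reads of *Cd9* can be shared with 2 transcripts annotated on the opposite strand, and whether reads were counted by strand is not given in the sources used here.

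*Spp1*, the secreted matrix protein osteopontin, was the only one of the 10 with a 5-month mean lower in adipose tissue than in muscle. Adipose values were 10.5, 3.69, 7.001 and 8.12 at 5 months and 61.2, 28.2, 262, 131 and 16.97 at 20 months, without overlap. In muscle they were 10.99, 19.3, 5.01 and 14.1 at 5 months and 4.82, 6.52, 3.18, 17.8 and 3.56 at 20 months, and muscle X18S57 (6.52) and X18S59 (17.8) lay inside the range of young mice. Against muscle, adipose *Spp1* was -0.62 (standard error 0.574) on the log2 scale at 5 months and 3.23 (0.514) at 20 months. Liver had the highest *Spp1* at 5 months, with 39.3, 23.6, 42.1 and 37.3, and every young liver exceeded every young adipose sample and every young muscle. At 20 months the livers held 57.96, 96.1, 99.4, 64.1 and 81.5. That range lay inside the range of adipose tissue, whose mean was 1.25 times the liver mean.

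In liver and adipose tissue, the ratio of the 20-month to the 5-month mean was 2.28 and 3.24 for *Cd68* and 1.80 and 3.47 for *Adgre1*. Both genes lay below *Itgax*, *Trem2*, *Gpnmb*, *Lgals3*, *Mmp12* and *Atp6v0d2* in each tissue. The ratio of *Cd9* was lower still (0.721 and 2.46), and that of *Spp1* was 2.24 in liver and 13.6 in adipose tissue. *Cd68*, a lysosomal glycoprotein of phagocytes, was 9.04, 9.75, 6.34 and 10.4 in liver at 5 months and 7.02, 17.1, 28.7, 19.3 and 29.3 at 20 months. In adipose tissue *Cd68* was 74.3, 62.5, 140.4 and 61.2, then 91.9, 277, 545, 321 and 135. In muscle it was 9.60, 18.6, 16.1 and 20.8, then 8.48, 2.86, 2.89, 3.38 and 2.78, so the old muscles all lay below the young ones while old livers and old adipose samples overlapped the young. At 5 months *Adgre1* ranged between 11.6 and 22.3 in liver, between 25.7 and 50.2 in adipose tissue and between 3.41 and 6.53 in muscle. At 20 months *Adgre1* was 11.5 to 48.7, 39.4 to 205 and 1.995 to 4.19, overlapping the young mice in each tissue. *Itgax*, the integrin CD11c of dendritic cells and of macrophages in inflamed fat, was 0.640 to 1.53 in liver at 5 months and 1.73 to 15.3 at 20 months. It was 11.8 to 30.3 and 22.1 to 249 in adipose tissue, and at most 12 reads in any muscle.

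*Lgals3*, *Mmp12* and *Atp6v0d2* were low in young liver and high in adipose tissue at both ages. *Lgals3*, which encodes a galectin released by macrophages, was 4.801 to 6.30 in liver at 5 months and 6.41 to 41.4 at 20 months, with liver X18L16 (6.41) just above the young mice. In adipose tissue *Lgals3* was 87.1 to 243 and 222 to 1383, and in muscle 4.53 to 14.9 and 7.02 to 13.3. *Mmp12*, the elastase that macrophages secrete, was 0.582 to 1.12 in young liver, from 8 to 17 reads, and 2.90 to 57.8 in old liver. In adipose tissue *Mmp12* was 27.6 to 110.2 and 96.5 to 2572, and in muscle no more than 5 reads at 5 months and from 2 to 28 reads at 20 months. *Mmp12* overlaps *Mmp1b* on the opposite strand. *Atp6v0d2*, a subunit of the lysosomal proton pump in macrophages and osteoclasts, was 0.0727 to 0.764 in young liver and 0.967 to 13.7 in old liver. Its adipose values were 17.9 to 56.6 and 36.8 to 252, and its muscle values stayed at or below 19 reads.

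Counted over the 10 genes, the old livers lay wholly above the young livers in 7, against 8.46% of all genes tested in liver. In adipose tissue the count was 2 of 10, *Trem2* and *Spp1*, against 8.30%. In muscle 2 of the 6 genes past the filter, *Cd68* and *Gpnmb*, lay wholly below, against 8.64%. The genes were chosen with this contrast known, so these counts carry no evidence of their own. The log2 age differences were 3.50 (standard error 0.650) for *Gpnmb*, 3.24 (0.582) for *Mmp12* and 2.30 (0.491) for *Atp6v0d2* in liver. The lowest in liver was *Cd9* at -0.26 (0.368), which was 0.06 without the young liver X5L4299. In adipose tissue they ran from 1.17 (0.335) for *Cd9* to 3.17 (0.872) for *Mmp12*, with *Spp1* at 3.03 (0.707) and *Trem2* at 2.90 (0.685). In muscle they ran from -1.82 (0.288) for *Cd68* to 0.24 (0.269) for *Lgals3*, with *Gpnmb* at -0.98 (0.224), and the *Lgals3* value was -0.01 without muscle X5S4299. The pseudocount understates genes near 1: on recovered reads, edgeR gave liver differences of 4.87 for *Gpnmb*, 4.70 for *Mmp12*, 3.89 for *Atp6v0d2*, 3.37 for *Trem2* and 2.92 for *Itgax*.

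**Figure D2:**
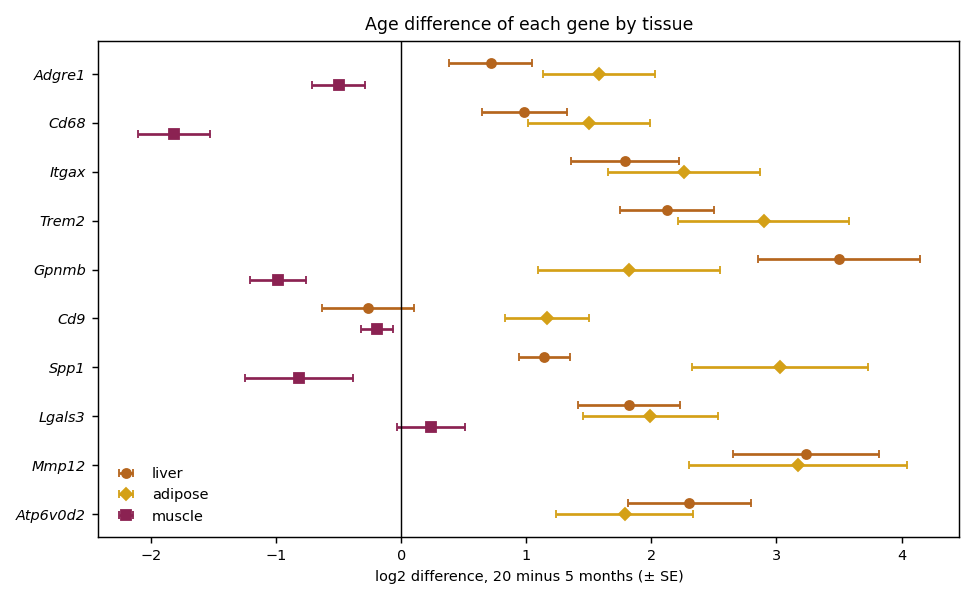
Log2 difference of 20 from 5 months for each gene in liver (circles), adipose tissue (diamonds) and muscle (squares), with bars of 1 standard error. *Itgax*, *Trem2*, *Mmp12* and *Atp6v0d2* have no muscle point because they were below the filter there, and in muscle the other 6 run from -1.82 to 0.24.

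At 5 months, adipose tissue stood above muscle without overlap in all genes but *Cd9* and *Spp1*. At 20 months it did so in all but *Spp1*. Liver stood above muscle without overlap in *Adgre1*, *Spp1* and *Mmp12* at both ages and in *Itgax* and *Trem2* at 20 months. It stood below muscle in *Gpnmb* at 5 months. The share of all genes without overlap between tissues was not counted. For liver, the log2 difference from muscle at 5 months was 0.38 (standard error 0.516) for *Itgax*, 0.30 (0.530) for *Trem2* and 0.11 (0.522) for *Atp6v0d2*. These standard errors pool the spread of all 27 samples, adipose tissue included, so they do not show the spread within liver and muscle alone. At 20 months the same differences were 2.12 (0.461), 2.32 (0.474) and 2.35 (0.467). *Cd9* kept nearly the same difference, -0.65 (0.344) and -0.72 (0.308). These within-age values hold the age difference that chose the genes and were not tested.

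**Figure D3:**
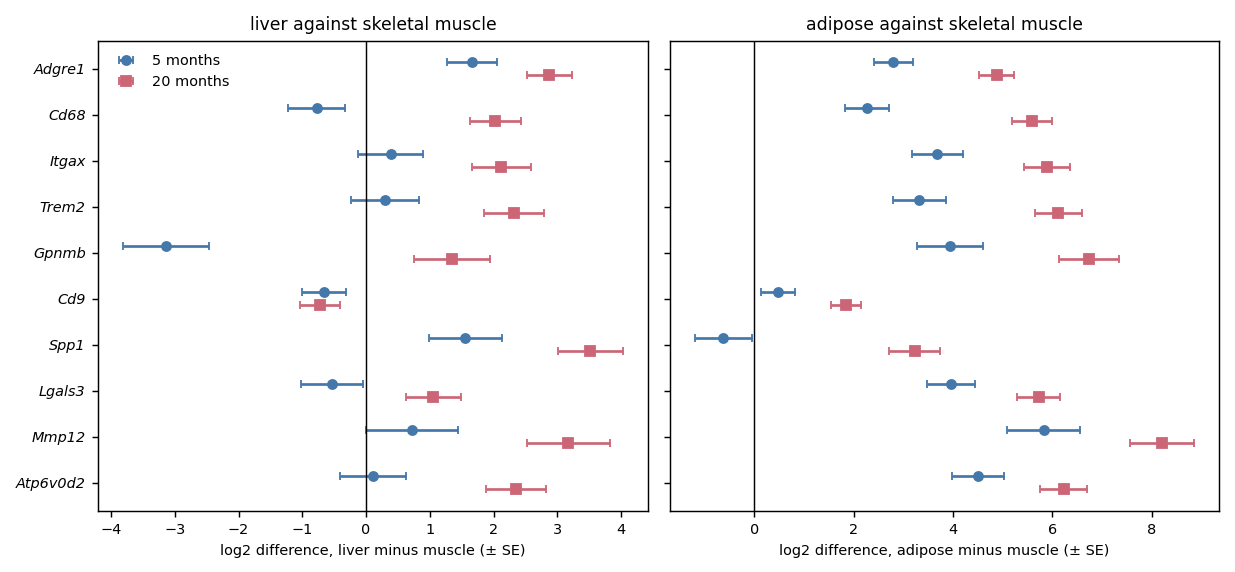
Log2 difference from skeletal muscle for liver (left) and adipose tissue (right) at 5 months (circles) and 20 months (squares). Bars are 1 standard error, pooled over all 27 samples. Liver points for *Gpnmb* lie at -3.13 and 1.35, and adipose points for *Spp1* at -0.62 and 3.23, on either side of 0.

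The same mice were high or low for most of the 10 genes. Adipose 38 had the highest value of all 10 genes at 20 months, and adipose X18F36 the lowest of 8. Liver 74 was highest for 8 genes and liver X18L16 lowest for 9 at 20 months, and muscle X5S5001 was highest for 8 genes at 5 months. No single young mouse led in every tissue: liver X5L4299 was highest for 6 genes, adipose X5F5238 for 7 and muscle X5S5001 for 8. Deviations from the tissue and age mean correlated over the 9 adipose samples with a median Pearson r of 0.89 over 45 gene pairs (0.40 to 0.99). In liver the median was 0.84 (-0.41 to 0.98), where *Cd9* had a median r of -0.31 with the other genes. In muscle it was 0.55 (0.07 to 0.84) over the 15 pairs of the 6 genes past the filter. The genes share their libraries, so these r are a description only.

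General macrophage markers moved with the 10 genes from sample to sample. The summed value of 16 such markers was 8333 in adipose X18F38, the highest, and 1801 in adipose X18F36, the lowest at 20 months. In old liver it was highest in liver X18L74 (1485) and lowest in liver X18L16 (415), and in young muscle it was highest in muscle X5S5001 (325). Adipocyte markers were lowest at 20 months in adipose X18F38 (3558), and hepatocyte markers were lowest in liver X18L74 (46507). Muscle X18S59, where *Spp1* was high, had the highest sum of 5 neutrophil markers (66.7, against medians of 2.41 in old and 19.5 in young muscle). Sums of 4 monocyte markers also had a higher median in young muscle (16.2) than in old muscle (4.12), but young X5S5238 (3.99) lay among the old. Most of the difference was in *Chil3* (means 8.03 and 1.95), and *Ccr2*, for example, had 4.37 and 3.56. With age, 0 of the 3 monocyte markers tested in muscle were called. All 16 macrophage markers had reads in every group. The part of these cell types in the results was not tested.

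**Figure D4:**
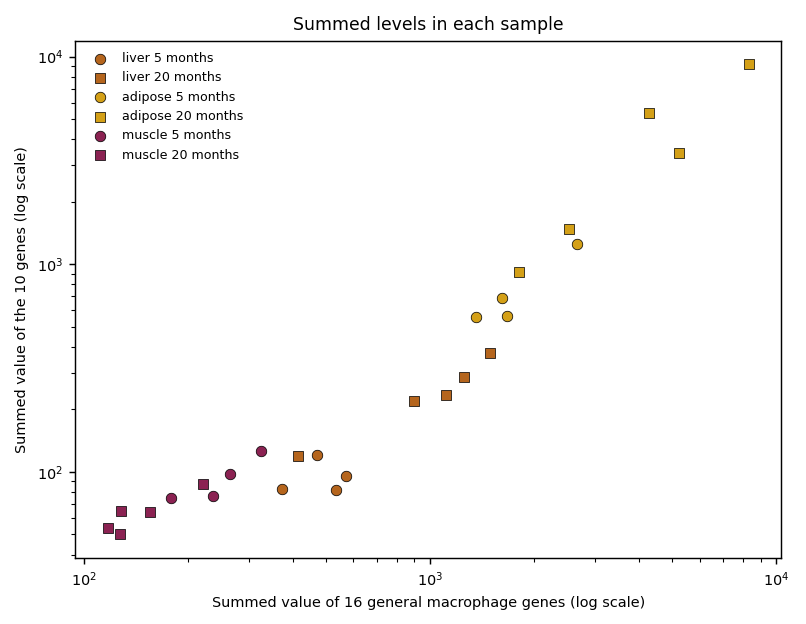
Summed value of the 10 genes (vertical, log scale) against the summed value of 16 general macrophage markers (horizontal, log scale), a point per sample, circles at 5 and squares at 20 months. The sum of the 10 genes runs from 50.2 to 126 in muscle, from 81.4 to 375 in liver, where young samples overlap muscle, and from 559 to 9191 in adipose tissue.

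Among genes outside the 10, those that followed *Gpnmb* most closely over the 27 samples, as deviations from the tissue and age mean, were *Rab7b* (r = 0.91), *Soat1* (0.89), *Sirpa* (0.89), *Arhgap25* (0.89) and *Gpr137b* (0.88), of 11014 genes tested in all 3 tissues. *Soat1* encodes the enzyme that esterifies cholesterol for storage, and *Rab7b* a small GTPase of late endosomes. The closest to the mean of the 6 genes tested in every tissue were *Tyrobp* (0.95), *Sh3bgrl3* (0.94), *Itgb2* (0.92), *Ctss* (0.92) and *Sirpa* (0.92). *Tyrobp* is the adaptor of Trem2, *Itgb2* the beta chain that pairs with the product of *Itgax*, and *Ctss* a lysosomal cathepsin. *Tyrobp* values averaged 8.26 ± 1.26 (SD, n = 4) and 23.7 ± 9.79 (SD, n = 5) in liver, 33.7 ± 11.3 and 112 ± 79.0 in adipose tissue, and 3.27 ± 0.805 and 2.29 ± 0.846 in muscle, at 5 and 20 months.

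Lists of other genes, also chosen with results of these data known, were tested over the ages, so their counts and p-values are not independent evidence of a direction. In liver 9 of 16 general macrophage genes rose with age and 0 fell (limma adjusted p under 0.05), where 10.03% of all genes rose and 9.79% fell. The largest increases were of *Cx3cr1*, a chemokine receptor (log2 2.19, standard error 0.485, limma adjusted p = 0.0153), and *Lyz2*, lysozyme (1.73, 0.393, limma adjusted p = 0.0164), and the list median was 1.09 against 0.00 for all genes. In adipose tissue 4 of 16 rose and 2 fell, where 9.75% of all genes rose and 9.35% fell, and the median was 0.91. *Ctss* (1.93, 0.594, limma adjusted p = 0.0486) and *Laptm5* (1.28, limma adjusted p = 0.0407) rose most, and the resident macrophage scavenger receptor *Cd163* (-1.79, 0.538, limma adjusted p = 0.0459) and *Mertk*, a receptor for dying cells (-0.61, limma adjusted p = 0.0421), fell. In muscle 0 of 13 tested rose and 5 fell, where 9.13% of all genes rose and 10.1% fell, with *Cd163* at -1.35 (0.291, limma adjusted p = 0.0118) and *Mrc1*, the mannose receptor, at -1.06 (0.310, limma adjusted p = 0.0349).

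Those counts depended on single mice. In liver 9 became 2 without X18L18, 3 without X5L5001, 4 without X5L5238 or X18L17 and 5 without X5L4299. Among the processing alternatives the liver count was 6 to 12. In adipose tissue 4 rose in all, 0 without a filter on low values and 11 with DESeq2, but 0 without any one of X5F4299, X5F5001, X18F37, X18F38, X18F39 or X18F40, 2 without X5F5239 and 12 without X18F36. In muscle 5 fell, but 3 without X5S5001, X5S5239, X18S57, X18S58 or X18S60 and 8 without X18S59. With any mouse left out, the list median kept its direction. It ranged between 0.96 and 1.43 for liver, between 0.75 and 1.09 for adipose tissue and between -0.70 and -0.46 for muscle.

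Of the genes that pass the Trem2 signal on, 3 of 7 tested rose in liver, 5 of 8 rose in adipose tissue and 1 of 7 fell in muscle. Of all genes 10.03% rose in liver, 9.75% rose in adipose tissue and 10.1% fell in muscle, and the muscle count is near that share. In liver they were *Tyrobp* (1.31, standard error 0.299, limma adjusted p = 0.0164), the kinase *Syk* (0.98, limma adjusted p = 0.0404) and the phospholipase *Plcg2* (0.92, limma adjusted p = 0.0218). In adipose tissue the largest were of *Vav1*, a signalling protein of blood cells (1.39, 0.298, limma adjusted p = 0.0212), and *Plcg2* (1.34, 0.261, limma adjusted p = 0.0160). The muscle gene was *Inpp5d*, the phosphatase Ship1 that curbs the signal (-0.91, 0.275, limma adjusted p = 0.0401). Over the processing alternatives the liver count was 2 to 5 and the adipose count 4 to 8. The liver count was 1 without X5L5001, X5L5238 or X18L18 and 5 without X18L16, the adipose count 2 without X5F4299, X5F5001 or X18F39, 3 without X18F37 and 8 without X18F36. The muscle count was 0 without any one mouse except X5S5238 (2) and X18S59 (1).

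Other genes of lipid-laden macrophages, several of which hepatocytes, adipocytes or myofibres also express, rose in 7 of 16 and fell in 2 in liver, where 10.03% of all genes rose and 9.79% fell. *Lgals1*, a galectin, rose most (2.52, standard error 0.376, limma adjusted p = 0.00626), then *Capg*, an actin-capping protein (1.83, 0.269, limma adjusted p = 0.00626), and the cholesterol exporter *Abca1* (-0.69, limma adjusted p = 0.00866) and *Ctsl*, a cathepsin (-0.65, limma adjusted p = 0.0251), fell. In adipose tissue 6 rose and 1 fell, where 9.75% of all genes rose and 9.35% fell, led by *Capg* (1.80, 0.494, limma adjusted p = 0.0370) and the lysosomal protease *Ctsd* (1.55, limma adjusted p = 0.0409), with the exporter *Abcg1* lower (-0.61, limma adjusted p = 0.0387). In muscle 1 rose, *Lgals1* (0.62, limma adjusted p = 0.0408), and 2 fell, *Ctsl* (-0.53, limma adjusted p = 0.0178) and the lysosomal lipase *Lipa* (-0.52, limma adjusted p = 0.0328), counts near the 9.13% and 10.1% of all genes. The adipose count of 6 was 1 without a filter and 10 in a fit over all 27 samples. It was 0 without X5F4299, X5F5001 or X18F39 and 1 without X18F37, X18F38 or X18F40. In muscle the *Lgals1* call was lost without any one mouse except X5S5238 and X5S5239, and the number that fell was 1 without X5S5001, X18S56, X18S57 or X18S60 and 4 without X5S5238.

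Whether the age change was larger than in muscle was tested for the same lists, with the same limit on what the counts show. In liver against muscle it was higher for 11 of 16 general macrophage genes, 5 of 8 Trem2 signalling genes and 6 of 16 of the other lipid-laden macrophage genes, where 9.35% of all genes were called higher. In adipose tissue against muscle it was higher for 10 of 16, 6 of 8 and 6 of 16, where 8.34% of all genes were called higher. List medians were 1.62, 1.25 and 0.73 for liver and 1.53, 1.62 and 0.78 for adipose tissue, against 0.03 and 0.00 over all genes. In muscle 13 of 16, 7 of 8 and 16 of 16 genes of these lists passed the filter, and the rest entered the fit only through liver and adipose tissue. The comparisons share the muscle samples. Without adipose X5F5001, 5 of 16 general macrophage genes were called for adipose tissue.

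Over both ages, 15 of 16 general macrophage genes were higher in liver than in muscle and 16 of 16 were higher in adipose tissue than in muscle, where 41.1% and 47.2% of all genes were called higher. In muscle 13 of the 16 passed the filter. The rest entered the fit only through liver and adipose tissue, so their part of these counts is no test. *Mpeg1*, the pore-forming perforin-2 of macrophages, differed most in both, by 3.72 (standard error 0.282, limma adjusted p = 3.18e-12) and 5.59 (0.282, limma adjusted p = 8.94e-16). Kupffer cells, the resident macrophages of liver, were marked by 7 genes, all of them higher in liver than in muscle. Only 1 of the 7 passed the filter in muscle, so these differences are given without a test. *Clec4f* differed by 6.64 (standard error 0.158) and *Cd5l* by 6.56 (0.232). With age, where 10.03% of all genes rose in liver and 9.75% in adipose tissue, 2 of the 7 Kupffer genes rose in liver, *Folr2* (1.46, 0.385, limma adjusted p = 0.0261) and *Cd5l* (1.32, 0.339, limma adjusted p = 0.0246), but 0 did without X5L5001, X5L5238, X18L18 or X18L19 and 1 without X5L4299 or X18L17. Monocyte markers rose in 3 of 4 in liver, with *Ccr2* at 1.77 (0.528, limma adjusted p = 0.0393), and in 2 of 4 in adipose tissue, with *Plac8* at 1.34 (0.205, limma adjusted p = 0.00958), or in 1 without X5F4299, X5F5001, X18F38, X18F39 or X18F40. All 4 B cell markers rose in both liver and adipose tissue, with *Ms4a1* at 2.67 (0.685, limma adjusted p = 0.0316) in adipose tissue, but 0 of the 4 did in adipose tissue without any one of X5F4299, X5F5001, X18F38, X18F39 or X18F40, and 2 in liver without X5L4299, X5L5001, X5L5238, X18L17, X18L19 or X18L74. The liver B cell count was 0 with a filter on the mean and 1 in a fit over all 27 samples, and the adipose count was 1 without a filter.

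Genes for macrophage growth and recruitment, fusion and lysosome function were mixed. Over all genes tested, 9.75% rose in adipose tissue and 10.03% in liver, and 10.1% fell in muscle. *Ccl2*, a chemokine that draws monocytes, rose in adipose tissue (1.05, standard error 0.260, limma adjusted p = 0.0293) and fell in muscle (-1.75, 0.527, limma adjusted p = 0.0388), where *Csf1*, the macrophage growth factor, also fell (-0.92, 0.264, limma adjusted p = 0.0328). The adipose *Ccl2* call was lost without X5F4299, X5F5001 or any old mouse but X18F36, and 0 of both muscle genes were called without X5S4299, X18S57, X18S58 or X18S60. Of 6 fusion and osteoclast genes tested, 3 rose in adipose tissue, led by the fusion receptor *Dcstamp* (1.72, 0.428, limma adjusted p = 0.0293). In liver 1 of the 6 rose, near the share of all genes. The adipose count was 0 without X5F4299, X18F37, X18F38 or X18F39 and 1 without X5F5001 or X18F40, and the liver count was 0 without any one of 7 of the 9 mice, all but X18L16 and X18L74. Of 16 lysosome genes, 4 rose in adipose tissue (2 to 8 over the processing alternatives), led by the cholesterol carrier *Npc2* (1.38, 0.302, limma adjusted p = 0.0222) and the lysosomal enzyme *Hexa* (1.13, limma adjusted p = 0.0330), but 0 did without X5F4299 or X18F39, 1 without X5F5001 or X18F37, 2 without X18F38 and 8 without X18F36. In liver *Npc2* rose (0.67, 0.123, limma adjusted p = 0.00977), and *Npc1*, the membrane partner of Npc2, fell (-0.73, 0.177, limma adjusted p = 0.0198). In muscle 2 of 15 fell, near the 10.1% of all genes, *Npc1* (-1.35, 0.219, limma adjusted p = 0.00375) and the lysosomal regulator *Tfeb* (-0.37, limma adjusted p = 0.0242).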

How the data were processed

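Poly-A RNA-seq of male *Mlx*KO mice covered 3 tissues. The authors used CLC Genomics Workbench for alignment and counting and deposited a scaled signal per gene, headed CPM, in which reads are divided by a factor particular to the library. Dividing by the smallest step gave back reads, whole within 0.01 for 100% of values. The submitters' processing notes name GRCm38.p6 and mm10. Which of these the deposited values rest on, and whether strand was used in counting, are not given in the sources used here. Coordinates follow GRCm38. Of 48 pairs of samples within a group, 0 held identical values (chi-square per degree of freedom 9.21 to 201.6).

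limma 3.58.1 (R 4.3.3) with a variance trend was applied to log2(value + 1), keeping genes that reached 1 in 4 or more samples, and p-values were adjusted by Benjamini-Hochberg over all genes tested at a threshold of 0.05. The age fits used the 9 samples of a tissue, and tissue differences and differences of age change used all 27. The design had assumed CPM, and its test was kept. The 10 genes and the gene lists were chosen with earlier results of these data known. All 10 genes are named. From each list, up to 2 of the largest called increases and decreases per comparison are named, plus the 5 genes most like *Gpnmb* and the 5 most like the mean of the 10, as far as they were tested in every tissue. *Plcg2* in liver was added after its value was seen.

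Samples of the same mouse were matched by the numbers in the sample names. The main fits did not use this pairing, and of the alternatives only the fit with the mouse as a block did. At 5 months, deviations of the same mouse in different tissues correlated with a mean r of 0.14 (-0.02 to 0.29, 12 pairs). The alternatives were fits of the reads by edgeR 4.0.16 or by DESeq2 1.42.0, pseudocounts of 0.1 and 0.5, no filter, a mean of at least 5, other scalings, no variance trend, the mouse as a block and each sample left out in turn. The procedures were tested on simulated reads. A called lysosome gene in liver is not reported here.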

Additional observations from a re-analysis of the deposited data

Results flagged for a closer look

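Of 60 groups of 4 or 5 samples (10 genes in 6 groups), 7 held a sample apart from the others by Dixon's criterion. These were *Gpnmb* in liver X5L4299 (1.91, where the next young liver had 0.713), *Itgax* in liver X5L4299 (1.53, next 0.727), *Cd68* in adipose X5F5238 (140.4, next 74.3), *Cd9* in muscle X5S5001 (38.8, next 32.3) and *Atp6v0d2* in muscle X5S5001 (1.05, next 0.279), all at 5 months. At 20 months they were *Cd68* in muscle X18S56 (8.48, next 3.38) and *Spp1* in muscle X18S59 (17.8, next 6.52). All 7 were the highest sample of their group. Chance gives such a sample in about 1 of 20 independent groups of normally distributed values. The groups here share libraries, and deposited values were used without logs, so 7 cannot be set against that rate.

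For 3 genes, every sample at 20 months lay above the young mean in one tissue and below it in muscle. The difference of the log2 age change was 2.08 for *Adgre1* and 3.32 for *Cd68* in adipose tissue against muscle, and 4.48 for *Gpnmb* in liver against muscle. These differences were not tested, since the genes were chosen with them known.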

How the results depend on the processing

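Calls between ages moved with the mice included. With 1 mouse left out they numbered 959 to 3557 genes in liver (2508 with all mice), 397 to 3748 genes in adipose tissue (2674) and 1158 to 3796 genes in muscle (2451), and the difference of age change between adipose tissue and muscle gave 1511 to 3211 genes (2285 with all mice). Without a filter, 1525 genes were called in adipose tissue and 1507 in muscle. In adipose tissue DESeq2 called 4347 and a fit over all 27 samples 5270. The other counts stayed within 1.5 times. Rescaling without the 20 most abundant genes shifted the log2 scale of old against young samples by 0.21 in liver, -0.03 in adipose tissue and 0.10 in muscle. The mean log2 scale of a tissue shifted by -0.39 in liver, 0.54 in adipose tissue and -0.15 in muscle, which enters the tissue differences. This rescaling turned no direction of the 10 genes. Directions turned only for *Cd9* in liver, which ran from -0.62 to 0.0587 over the mice left out (0.0587 without X5L4299), and *Lgals3* in muscle, from -0.0139 to 0.49 (-0.0139 without X5S4299), and the cause was not tested. With the mouse as a block, 12815 genes differed between liver and muscle (12754 without it), and the pairing changed no call of the 10 genes between tissues. Depth limits *Trem2*, *Itgax*, *Mmp12* and *Atp6v0d2* in muscle, where 0 to 28 reads lay behind a value, too few to describe an age difference.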
